A study of Mus musculus with 6 samples.

Results

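The mitochondrial ribosomal protein genes were taken as all genes whose single symbol in the platform annotation begins with Mrpl or Mrps followed by a digit. The rule found 74 of the 12393 genes on the array, 47 Mrpl genes of the large subunit and 27 Mrps genes of the small subunit. Liver RNA was measured on 6 arrays, 3 of SIRT7 knock-out mice and 3 of wild-type mice, and the labels describe the treatment as shared by all. Strain, age, sex, diet and the design of the Sirt7 allele are not stated there. Values are GCRMA log2 expression values of 1 probe set per gene, the one with the highest mean over the 6 arrays, so a difference of 1 is a 2-fold change. In bulk liver, fewer cells of a type and less RNA per cell cannot be told apart.

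Mitochondria carry their own ribosome, which translates the few membrane subunits of the respiratory chain that mitochondrial DNA encodes. Its RNAs come from that DNA, while all of its proteins are encoded in the nucleus, made in the cytosol and imported, so that each ribosome needs many nuclear genes to be expressed side by side. SIRT7 is a nuclear NAD-dependent deacylase. In blood stem cells of mice it has been reported to act with the transcription factor NRF1 on genes of the mitochondrial translation machinery, and in mouse liver to act on GABPB1, a subunit of the ETS-family factor GABP.

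The Sirt7 probe set read 2.38, 3.11 and 2.86 in knockout livers 1 to 3, against 9.85, 9.80 and 9.57 in wild-type livers 1 to 3 (limma adjusted p = 3.99e-06). The position of its probes relative to the targeted exons is not known here. The 7 hepatocyte markers found on the array had means of 12.32 to 13.52, near the top of the scale, and differed by a median of -0.23 (2 higher, 5 lower, 0 called). Their median deviation was -0.28, -0.26 and 0.20 in knockout livers 1 to 3 and -0.01, 0.13 and 0.17 in wild-type livers 1 to 3. Wild-type liver 3 stood apart from wild-type livers 1 and 2, with higher values in 20 of 21 tested cell cycle genes. The median deviation of those genes from their means was 0.59, 0.60 and 0.66 in the knockout livers and -1.03, -0.99 and 0.28 in the wild-type livers. Among 7 marker lists of other cell types, the median difference was highest for erythroid markers (0.59, 2 tested genes, 1 higher and 1 lower) and lowest for stellate cell markers (-0.24, 6 of 7 lower). The part of these shifts in the values below was not tested.

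Transcripts of the mitochondrial ribosomal proteins were readily measured in both genotypes, and none of the 74 genes passed the test for a difference between them. Every gene had a mean over 6 livers of at least 6.91, so all 74 passed the filter of 4 on low values and entered the fit with the other genes, 8343 in all. Limma called 0 of 74 at a Benjamini-Hochberg adjusted p under 0.05, against 0.024% of all genes tested, and the smallest adjusted p was 0.76. At an unadjusted p under 0.05 there were 2 genes, against 6.46% of all genes. They were Mrps11 on the higher side in knockout livers (3.04% of all genes) and Mrpl33 on the lower side (3.42% of all genes). The knockout and wild-type values did not overlap in 3 genes, against 9.74% of all genes. Knockout values were above in Mrps11 and Mrpl12 (4.27% of all genes) and below in Mrpl33 (5.48% of all genes).

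The differences were small on the scale of the array. Knockout minus wild type was positive in 39 genes and negative in 35, with positive differences in 45.4% of all genes tested. The median difference was 0.035 in the large subunit (26 higher, 21 lower) and -0.007 in the small subunit (13 higher, 14 lower), beside a median of -0.032 over all genes tested. Differences ran from -0.41 (Mrpl33) to 0.38 (Mrpl14) in the large subunit and from -0.48 (Mrps24) to 0.71 (Mrps11) in the small subunit. In size, the median difference was 0.15 among the 74 genes and 0.19 over all genes tested. In 50 of the 74 genes the difference was smaller in size than its own standard error. The 74 genes and all genes tested are unlike sets. Their median signals were 9.75 and 8.42, and their median residual standard deviations were 0.26 and 0.28. The part of this in the comparisons with all genes was not tested.

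The precision of 6 arrays can be read from the intervals. In 67 of 74 genes the 95% confidence interval of the difference lay wholly between -1 and 1, that is, within a 2-fold change in either direction. The 7 others were Mrpl4 and Mrps24, whose intervals reached down to -1.01 and -1.29, and Mrpl14, Mrpl20, Mrps11, Mrps18a and Mrps34, whose intervals reached up to 1.22, 1.01, 1.30, 1.07 and 1.001. The plot of the differences with their intervals shows this for every gene.

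**Figure D1:**
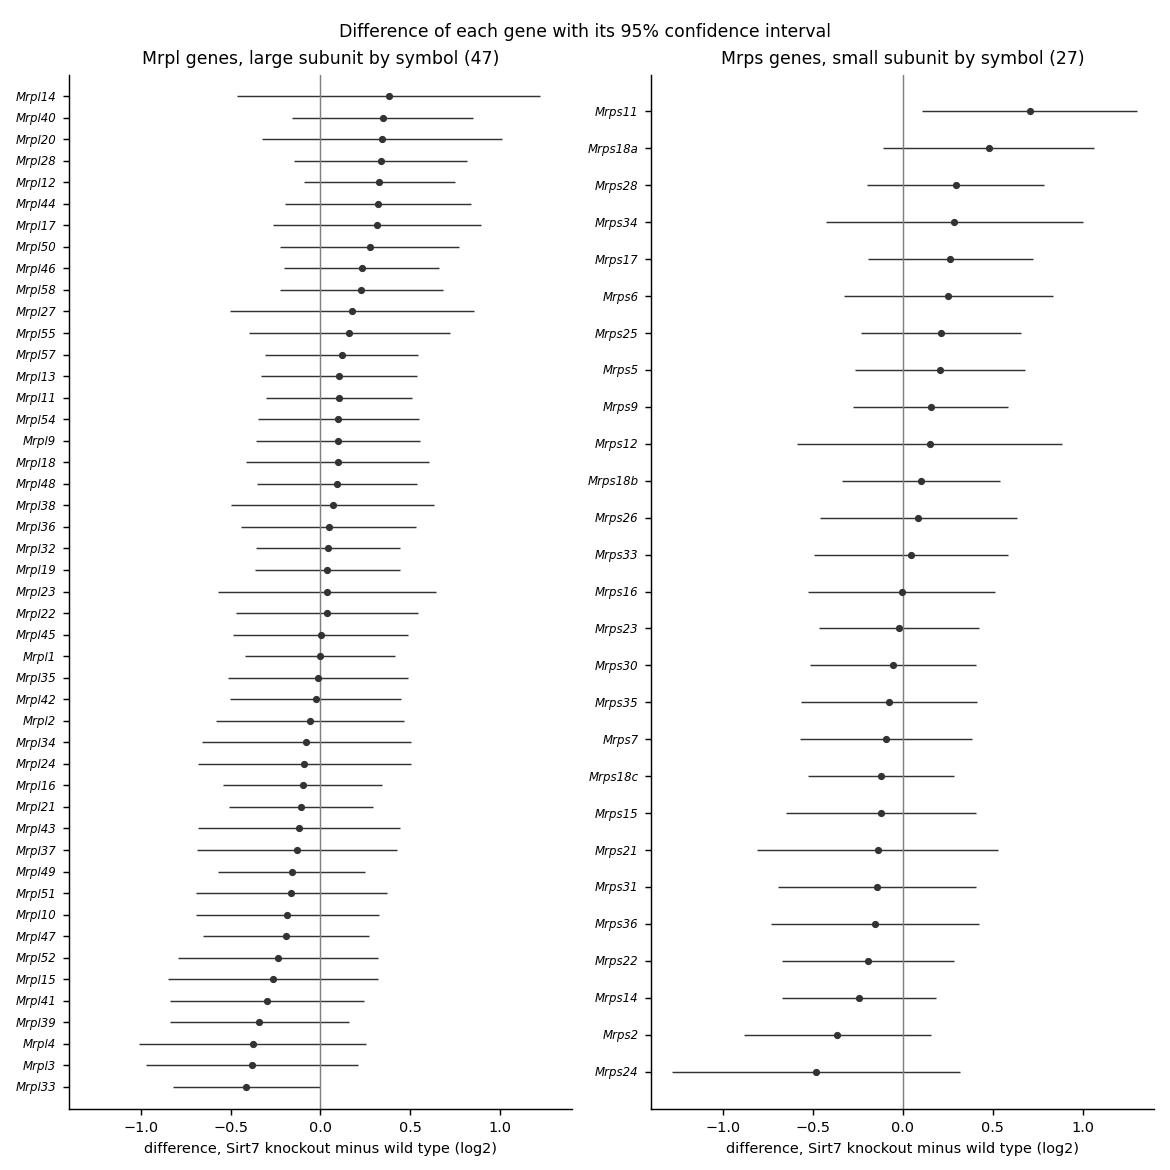
Difference of each gene between Sirt7 knockout and wild-type livers (x axis, log2, knockout minus wild type) with limma's 95% confidence interval (horizontal line), Mrpl genes left and Mrps genes right, sorted by difference. All intervals but those of Mrps11 (0.11 to 1.30) and Mrpl33 (-0.82 to -0.002) contain 0.

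In the large subunit, the smallest p belonged to Mrpl33, which encodes a small protein with a bacterial counterpart. Mrpl33 read 10.28, 10.37 and 10.28 in knockout livers 1 to 3, against 10.87, 10.56 and 10.74 in wild-type livers 1 to 3. All knockout livers were below all wild-type livers, and the knockout values were close to each other. The difference was -0.41 (SE 0.18, limma adjusted p = 0.772), and it lay between -0.50 and -0.34 when each array was left out in turn. A second probe set of Mrpl33 had a mean of 2.21, under the filter.

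Mrpl12 encodes the counterpart of the bacterial stalk protein that receives translation factors, and its product also binds mitochondrial RNA polymerase. It read 10.83, 10.85 and 10.88 in knockout livers, against 10.47, 10.37 and 10.74 in wild-type livers. The knockout livers were nearly equal and lay above every wild-type liver, of which liver 3 came closest. The difference was 0.33 (SE 0.18, limma adjusted p = 0.795). Mrpl12 is also the closest of the 74 genes to Sirt7: on chromosome 11 it is 8 tested genes away in the gene order of RefSeq assembly GRCm38.p6. The next ones, Mrpl38 (53 genes away), Mrps7 (64) and Mrpl58 (70), differed by 0.07, -0.09 and 0.23.

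Of the other large subunit genes with the smallest p, Mrpl28 and Mrpl40 leaned toward higher and Mrpl39 and Mrpl3 toward lower values in knockout livers, with overlapping groups in all 4. Mrpl28, a gene with a bacterial counterpart, read 8.66, 8.77 and 8.95 in knockout livers, against 8.29, 8.29 and 8.80 in wild-type livers. Wild-type liver 3 was inside the knockout range, and the difference was 0.34 (SE 0.21, limma adjusted p = 0.796), or 0.50 without that liver. Mrpl40, a mitochondria-specific gene, read 9.77, 9.25 and 9.14 in knockout livers, against 9.03, 8.89 and 9.20 in wild-type livers. Its difference of 0.35 (SE 0.22) was 0.16 without knockout liver 1.

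Mrpl39, also specific to mitochondria, read 11.13, 11.36 and 11.78 in knockout livers, against 11.81, 11.87 and 11.62 in wild-type livers. Knockout livers 1 and 2 were below every wild-type liver and knockout liver 3 among them, for a difference of -0.34 (SE 0.22, limma adjusted p = 0.796). It was -0.19 without knockout liver 1 and -0.52 without knockout liver 3, and another probe set differed by -0.40. Mrpl3, one of the conserved proteins near the peptidyl transferase centre, read 8.44, 8.68 and 9.18 in knockout livers, against 9.41, 9.26 and 8.78 in wild-type livers. Its difference was -0.38 (SE 0.26) on that probe set and 0.03 and -0.17 on its other probe sets. On the first it was -0.22 without knockout liver 1 and -0.59 without knockout liver 3.

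Mrpl16 and Mrpl24 encode conserved proteins of the large subunit, and both have been named among the genes that SIRT7 and NRF1 act on in mouse blood stem cells. In these livers Mrpl16 read 11.15, 10.83 and 11.27 in knockouts, against 11.08, 11.27 and 11.20 in wild types. The groups overlapped, and the 95% interval around the difference of -0.10 ran from -0.54 to 0.34. Mrpl24 read 11.02, 10.83 and 11.31 in knockout livers, against 10.73, 11.09 and 11.61 in wild-type livers. Its lowest and highest values were both in wild-type livers, and the interval around the difference of -0.09 ran from -0.68 to 0.50.

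Among small subunit genes, Mrps11 had the smallest p and the largest difference of all 74 genes. It encodes the counterpart of the bacterial protein S11, which sits on the platform of the small subunit. Mrps11 read 8.35, 7.87 and 7.95 in knockout livers, against 7.05, 7.14 and 7.86 in wild-type livers. The groups did not overlap, but only 0.011 separated knockout liver 2 from wild-type liver 3. The difference was 0.71 (SE 0.26, 1.63-fold, limma adjusted p = 0.76). Without wild-type liver 3 it was 0.96 (SE 0.23, adjusted p = 0.163), and over all arrays left out in turn it lay between 0.56 and 0.96. Its other probe set, with a mean of 3.69, was under the filter and differed by -0.26.

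In the RefSeq promoter table, Mrps11 starts 42 bases from Mrpl46, a mitochondria-specific large subunit gene on the opposite strand of chromosome 7, and the promoter windows of both genes share 141 bases. The window of Mrps11 is shown because it serves as the start region of both genes (GRCm38.p6, chr7:78782881-78783180, plus strand, 250 bases before to 50 after the start). Capitals mark the letters AAGATGG of the YY1 motif, here read on the opposite strand, at position -106 from the start of Mrps11. These letters lie outside the 141 shared bases, just past the end of the Mrpl46 window. That window stops 50 bases after the start of Mrpl46 and holds no YY1 match. The letters shown are missing from it only because of where it ends.
Mrps11: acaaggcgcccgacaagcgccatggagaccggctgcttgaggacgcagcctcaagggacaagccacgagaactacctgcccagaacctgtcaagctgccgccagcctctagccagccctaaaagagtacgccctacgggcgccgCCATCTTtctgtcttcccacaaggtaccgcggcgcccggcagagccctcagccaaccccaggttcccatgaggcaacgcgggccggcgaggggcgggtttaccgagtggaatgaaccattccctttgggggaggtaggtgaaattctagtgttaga
Mrpl46 read 8.38, 8.06 and 8.36 in knockout livers, against 8.12, 7.89 and 8.10 in wild-type livers. Only knockout liver 2 overlapped the wild-type range, and the difference was 0.23 (SE 0.19, limma adjusted p = 0.83). Both genes of the pair were thus on the positive side, with a larger difference in Mrps11; the difference between them was not tested.

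Mrps18a, Mrps18b and Mrps18c encode 3 paralogs of 1 bacterial protein. Structures of the mammalian ribosome place MRPS18B and MRPS18C in the small subunit and MRPS18A in the large one, although its symbol says otherwise. Mrps18a read 9.98, 9.69 and 9.26 in knockout livers, against 8.86, 9.08 and 9.54 in wild-type livers. Knockout livers 1 and 2 were above every wild-type liver and knockout liver 3 was not, for a difference of 0.48 (SE 0.26, limma adjusted p = 0.789), which was 0.31 without knockout liver 1. Mrps18b differed by 0.10 (95% interval -0.34 to 0.54) and Mrps18c by -0.12 (-0.53 to 0.28), with overlapping groups in both.

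The remaining small subunit genes named by p were split in direction. Mrps24 read 9.64, 10.43 and 10.96 in knockout livers, against 10.90, 11.21 and 10.37 in wild-type livers, a difference of -0.48 (SE 0.35). It had the widest spread over the 6 livers of all 74 genes, 1.57 log2 units, with knockout liver 1 lowest. The difference was -0.13 without that liver and -0.79 without knockout liver 3. A second probe set of Mrps24 differed by -0.39 with every knockout value below every wild-type value, and both probe sets are of a type that can match several transcripts. Mrps2 differed by -0.37 (SE 0.23), Mrps28 by 0.29 (SE 0.22) and Mrps17 by 0.26 (SE 0.20), each with overlapping groups and a limma adjusted p of 0.796 or more. Without knockout liver 1 these 3 differences were -0.21, 0.15 and 0.17.

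**Figure D2:**
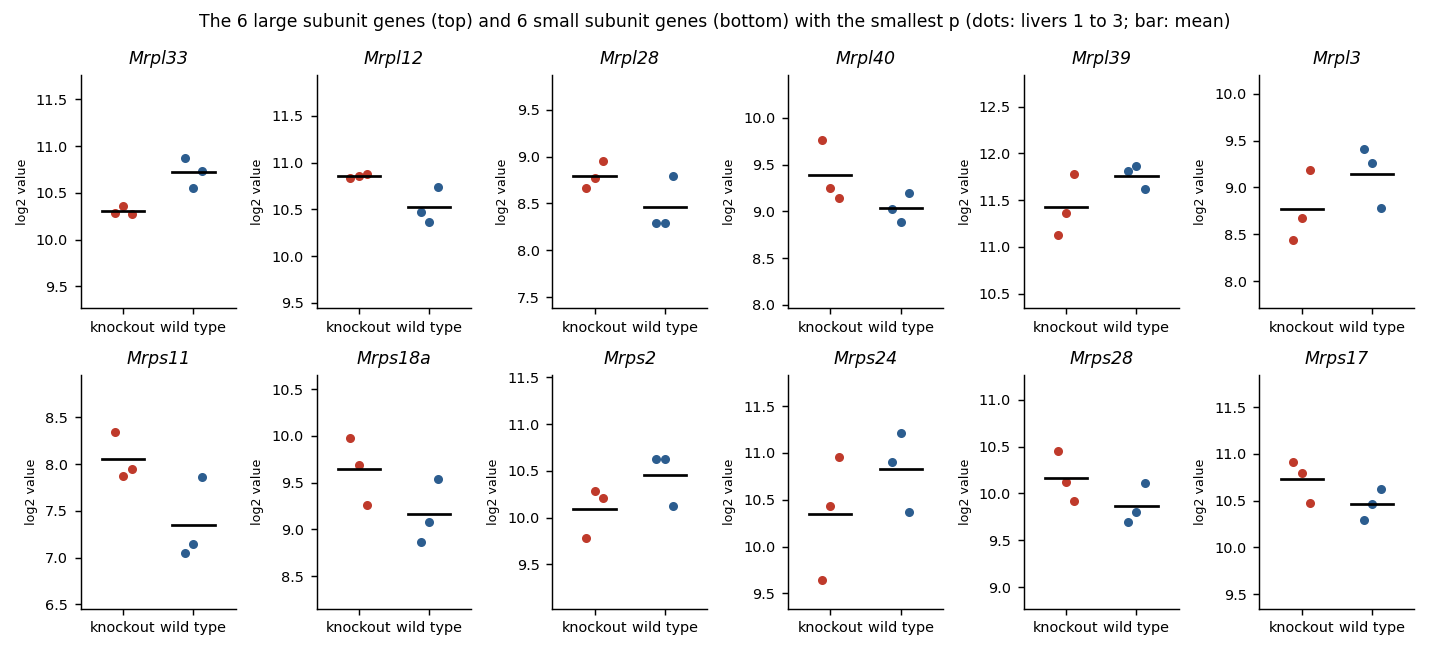
GCRMA log2 values (y axis, each panel spanning the same range of 2.5 units) of the 6 Mrpl genes (top row) and 6 Mrps genes (bottom row) with the smallest p, in 3 Sirt7 knockout livers (red, left) and 3 wild-type livers (blue, right); the bar is the group mean. Mrpl33, Mrpl12 and Mrps11 show groups that do not overlap, and in Mrps11 wild-type liver 3 (7.86) nearly reaches the lowest knockout value (7.87).

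On the probe set used, several genes stayed nearly level across all 6 livers. The range from the lowest to the highest liver was 0.25 in Mrpl19, 0.26 in Mrpl32 and 0.28 in Mrpl21. Other probe sets of Mrpl19 differed between the genotypes by 0.33 and -0.41. The median range was 0.65 among the 74 genes and 0.75 over all genes tested. Mrpl45, whose product is related to a protein of the import machinery, differed by 0.001 (95% interval -0.48 to 0.49). Mrps5, a gene with a bacterial counterpart, differed by 0.21 (-0.27 to 0.68). Mrpl52, specific to mitochondria, differed by -0.24 (-0.79 to 0.32), and 3 other probe sets of it by -0.09, -0.03 and -0.14.

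Livers of the same genotype differed from each other in the median level of these genes. The median deviation of the large subunit genes from their own means was 0.02, -0.14 and 0.19 in knockout livers 1 to 3 and -0.12, -0.02 and 0.12 in wild-type livers 1 to 3. Small subunit genes had 0.06, -0.14 and 0.13 in knockout livers and -0.19, 0.006 and 0.10 in wild-type livers. Both subunits were low in knockout liver 2 and wild-type liver 1 and high in knockout liver 3 and wild-type liver 3, which were also the highest livers of their genotype in the hepatocyte markers (the part of this in the values was not tested), so the ranges of both genotypes overlapped. Over all genes tested the same medians stayed between -0.05 and 0.07.

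Counts of extremes show the same layout. Knockout liver 3 held the highest value of 27 of the 74 genes (36.5%, against 20.5% of all genes tested), and wild-type liver 3 that of 21 (28.4%, against 15.4%). Knockout liver 2 held the highest value of 0 of the 74 genes, against 10.5% of all genes. Wild-type liver 1 held the lowest value of 24 genes (32.4%, against 17.4%). Wild-type liver 3, which also stood apart in the cell cycle genes, was the highest wild-type liver in 48 of 74 genes (64.9%, against 37.2% of all genes). These shares are descriptions of 6 arrays, and genes of 1 array are not independent.

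**Figure D3:**
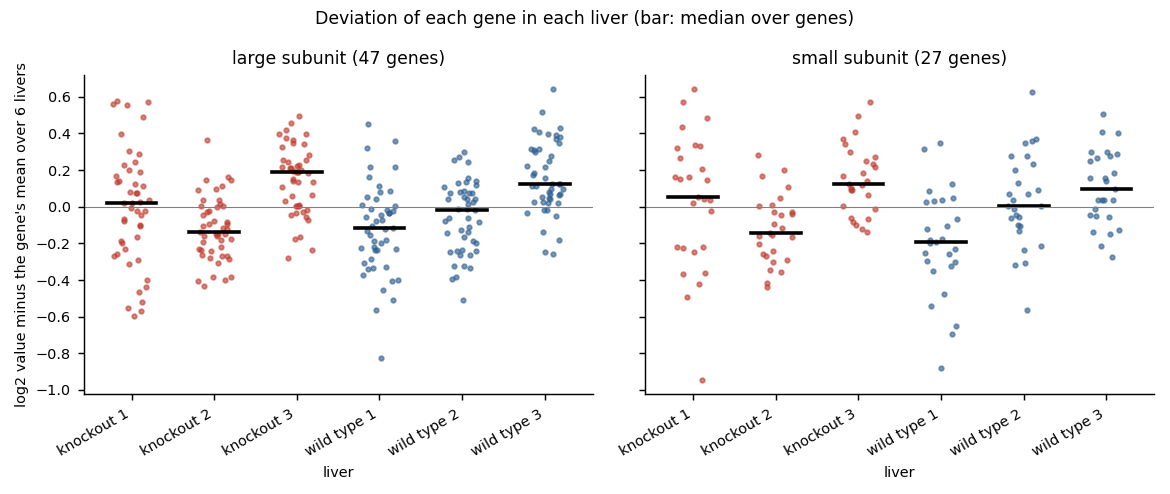
Deviation of each gene (dot) from its own mean over 6 livers (y axis, log2) in 3 Sirt7 knockout livers (red) and 3 wild-type livers (blue), for 47 Mrpl genes (left) and 27 Mrps genes (right); the bar is the median over genes. Medians run from -0.14 to 0.19 in knockout livers and from -0.19 to 0.12 in wild-type livers.

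The number of genes at an unadjusted p under 0.05 varied with the livers included, and so did the share over all genes tested. Without wild-type liver 3 there were 7, all higher in knockout livers (Mrps11, Mrpl14, Mrps18a, Mrps6, Mrpl28, Mrpl20 and Mrps34), against 11.8% of all genes. Without knockout liver 3 there were 8 (3 higher, 5 lower), against 16.6% of all genes. Without knockout liver 2 there was 1 (4.08% of all genes). There were 0 without knockout liver 1 (4.42% of all genes), without wild-type liver 1 (3.33%) and without wild-type liver 2 (3.03%). Limma called 0 of 74 at the adjusted threshold in each of these 6 fits. Of all genes it called 0.0599%, 0.012% and 0.012% without knockout livers 1, 2 and 3, and 0.024%, 0.0839% and 0.455% without wild-type livers 1, 2 and 3. With array weights, an option that lets less variable arrays count more, it called 11 of 74 (4 higher, 7 lower), against 21% of all genes, and 23 of 74 had an unadjusted p under 0.05, against 39.2% of all genes. That fit put a weight of 6.12 on knockout liver 2 and 0.31 to 2.54 on the other arrays.

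For 28 of the 74 genes another probe set with a mean of at least 4 was on the array, 44 probe sets in all. In 31 of the 44 the difference had the same sign as on the probe set used, and in 13, from 10 genes, the opposite sign. The median gap between both differences was 0.25 over these 44 probe sets. The median size of the difference was 0.15 on the probe sets used of all 74 genes, a different set and measure. The widest gap was in Mrps23, which differed by -0.02 on the probe set used. Its other probe set read 8.61, 7.72 and 6.93 in knockout livers, against 6.74, 6.57 and 7.31 in wild-type livers, a difference of 0.88 with knockout liver 1 highest and overlapping groups.

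Mrps25 differed by 0.21 on the probe set used and by -0.52 and -0.42 on dimmer ones, in both of which every knockout value lay below every wild-type value. Mrpl11, next to the ribosomal stalk, differed by 0.10 on the probe set used and by -0.14, 0.45 and -0.59 on others. On the last of these, a dim one, all knockout values were also below all wild-type values. Groups did not overlap in 4 of the 44 other probe sets, against 9.74% of all genes tested on the probe sets used. Mrpl15 had 6 probe sets above the filter, which differed by -0.27, -0.01, -0.28, 0.16, -0.71 and -1.01 in order of falling signal. Mrpl44, in contrast, gave 0.32, 0.31 and 0.06, and Mrps9 gave 0.16, 0.18, 0.47 and 0.01. The other genes with opposite signs were Mrpl1 (-0.001 and 0.02), Mrpl19 (0.04, 0.33 and -0.41), Mrpl3, Mrpl34 (-0.08 and 0.40), Mrpl51 (-0.16, 0.16 and 0.17) and Mrpl57 (0.12 and -0.14). Of the probe sets used, 5 have the suffix _s_at and 3 the suffix _x_at, which mark probes that can match other transcripts.

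**Figure D4:**
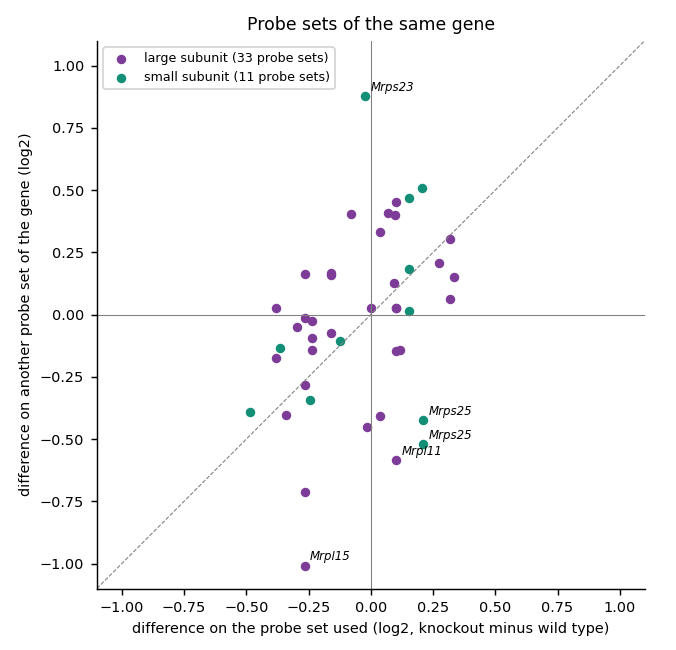
Difference between Sirt7 knockout and wild-type livers on the probe set used (x axis, log2) and on each other probe set of the same gene with a mean of at least 4 (y axis, log2), for 33 probe sets of Mrpl genes and 11 of Mrps genes; the dashed line marks equal values. The 13 probe sets of opposite sign lie upper left and lower right of the zero lines, and points with a gap over 0.5 carry their gene name.

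Medians of genes grouped by evolutionary origin were also close to 0. The 46 genes with a bacterial counterpart had a median difference of 0.037 (25 higher, 21 lower) and the 28 mitochondria-specific genes one of -0.011 (14 higher, 14 lower). In the small subunit the medians were 0.10 for 17 genes with a bacterial counterpart and -0.04 for 10 mitochondria-specific genes. MRPS30, like MRPS18A, lies in the large subunit, and MRPS36 has been assigned to the 2-oxoglutarate dehydrogenase complex. Mrps30 differed by -0.05 (95% interval -0.52 to 0.41) and Mrps36 by -0.15 (-0.73 to 0.43).

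Promoter windows of 300 bases were found in the RefSeq table (GRCm38.p6) for 65 of the 74 genes, 71 windows in all, and were searched on both strands for 4 motifs. The ETS motif bound by GABP (CCGGAAG) was in 33.8% of these windows, against 8.86% of all 32851 windows in the table. The YY1 motif (AAGATGG) was in 16.9%, against 6.34%, and the E-box bound by MYC and other factors (CACGTG) in 9.86%, against 7.15%. Overlapping windows of Mrpl2 held the same E-box, so the 7 windows with a match came from 5 of the 65 genes. The full NRF1 palindrome (GCGCATGCGC) was in 4.23%, against 0.971%. Members' windows held a median of 21 CG dinucleotides, against 7 in all windows. None of the 4 motifs contains another, and a match is only a match of letters.

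Median differences were close to 0 with and without each of these 3 motifs, over genes that went both ways. The 24 genes with an ETS match had a median difference of 0.014 (12 higher, 12 lower) and the 41 without one 0.001 (21 higher, 20 lower). For YY1 the medians were -0.020 in 12 genes with a match and 0.035 in 53 without. For the E-box they were -0.057 in 5 genes and 0.018 in 60. The windows of Mrpl33 (chr5:31613701-31614000, plus strand) and Mrps18a (chr17:46110754-46111053, plus strand) are shown because these genes, on opposite sides of 0, both hold an ETS match close to the start. Capitals mark the ETS letters and, in Mrps18a, also the YY1 letters that follow.
Mrpl33: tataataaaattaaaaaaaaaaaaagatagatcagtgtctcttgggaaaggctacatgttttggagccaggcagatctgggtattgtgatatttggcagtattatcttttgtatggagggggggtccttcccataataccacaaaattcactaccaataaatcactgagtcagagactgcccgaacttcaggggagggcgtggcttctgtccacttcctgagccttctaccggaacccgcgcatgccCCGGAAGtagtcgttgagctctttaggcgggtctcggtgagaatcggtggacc
Mrps18a: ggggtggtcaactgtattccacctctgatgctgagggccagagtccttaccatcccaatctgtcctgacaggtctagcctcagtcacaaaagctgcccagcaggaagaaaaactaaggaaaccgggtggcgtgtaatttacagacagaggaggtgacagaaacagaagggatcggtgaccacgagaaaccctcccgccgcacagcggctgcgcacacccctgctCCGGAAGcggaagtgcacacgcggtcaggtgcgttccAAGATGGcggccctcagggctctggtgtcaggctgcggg

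The NRF1 palindrome was found in 3 genes, Mrpl9, Mrpl32 and Mrpl39, which differed by 0.10 (SE 0.20), 0.04 (SE 0.18) and -0.34 (SE 0.22). The 60 bases around each match are shown, with the palindrome in capitals, since NRF1 is the factor reported to act with SIRT7. They lie at chr3:94443283-94443342 (plus strand), chr13:14613090-14613149 (minus strand) and chr16:84735335-84735394 (minus strand), and the palindrome begins 28, 87 and 125 bases before the start.
Mrpl9: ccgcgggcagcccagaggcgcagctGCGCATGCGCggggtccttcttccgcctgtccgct
Mrpl32: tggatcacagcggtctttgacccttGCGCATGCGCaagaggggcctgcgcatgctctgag
Mrpl39: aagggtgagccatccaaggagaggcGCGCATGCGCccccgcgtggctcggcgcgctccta
Mrpl9 read 8.67, 8.54 and 8.54 in knockout livers, against 8.38, 8.29 and 8.78 in wild-type livers, and Mrpl32 stayed between 10.65 and 10.91 in all livers. With 1 palindrome gene below 0 and 2 just above it, the 3 did not share a direction. Only these exact letters were searched for, and sites that differ from them were not counted. The 3 genes need not be all members with an NRF1 site.

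Genes that act with the mitochondrial ribosome were also below the threshold. In 6 lists of ribosomal proteins under other symbols, translation factors, aminoacyl-tRNA synthetases, assembly factors, transcriptional regulators, and chaperones and proteases, 69 genes were tested, 31 higher and 38 lower in knockout livers. Limma called 0 of 69, against 0.024% of all genes tested. An unadjusted p under 0.05 was reached by 1 of 69, against 6.46% of all genes. List medians ran from -0.15 (4 ribosomal proteins under other symbols, 1 higher and 3 lower) to 0.11 (16 assembly factors, 10 higher and 6 lower).

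The gene with that p was Nrf1, which encodes the factor named above. Nrf1 read 5.28, 5.50 and 5.56 in knockout livers, against 5.06, 5.02 and 5.03 in wild-type livers. The wild-type values were nearly equal and all knockout values were above them, at a low signal. The difference was 0.41 (SE 0.18, limma adjusted p = 0.772). Ppargc1a, the coactivator of mitochondrial biogenesis, read 9.48, 8.95 and 7.95 in knockout livers, against 7.96, 7.98 and 8.65 in wild-type livers, a difference of 0.60 (SE 0.38) with overlapping groups. The GABP subunit genes Gabpa and Gabpb1 differed by 0.02 (95% interval -0.59 to 0.63) and -0.14 (-0.64 to 0.37).

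Of the translation factors, 3 were higher and 8 lower in knockout livers, with a median difference of -0.07. Gfm1, which encodes mitochondrial elongation factor G, read 8.85, 9.32 and 10.22 in knockout livers, against 10.10, 10.25 and 10.11 in wild-type livers. The wild-type livers were alike and knockout livers 1 and 2 lay below them, for a difference of -0.69 (SE 0.32, limma adjusted p = 0.773). Gfm2, the recycling factor reported with Mrpl16 and Mrpl24, differed by -0.04 (95% interval -0.50 to 0.42), and Qrsl1, of the enzyme that forms glutaminyl-tRNA, by -0.32 (SE 0.28).

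Among the assembly factors, Dhx30, an RNA helicase gene, read 8.09, 8.96 and 10.20 in knockout livers, against 10.38, 10.68 and 9.50 in wild-type livers. Its difference was -1.102 (SE 0.51, limma adjusted p = 0.773), and its range was 2.109 in knockout livers and 1.18 in wild-type livers. Mrm2, which encodes a methyltransferase of the large ribosomal RNA, read 7.01, 7.35 and 6.86 in knockout livers, against 6.64, 6.29 and 6.84 in wild-type livers. Its groups did not overlap, by 0.017, and the difference was 0.48 (SE 0.22, adjusted p = 0.773). Chchd1 and Ptcd3, ribosomal proteins without an Mrp symbol, differed by -0.23 (SE 0.18) and -0.17 (SE 0.17). In Chchd1 every knockout value lay below every wild-type value, by 0.042. Groups did not overlap in 9.74% of all genes tested.

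Of 10 tested aminoacyl-tRNA synthetases 5 were higher and 5 lower, with the smallest p in Pars2 (-0.33, SE 0.31) and Gars (-0.33, SE 0.35), an enzyme shared with the cytosol. Of 14 mitochondrial chaperones and proteases 6 were higher and 8 lower. Clpx, the unfoldase of the matrix protease ClpXP, read 10.97, 11.21 and 10.81 in knockout livers, against 10.50, 10.77 and 10.67 in wild-type livers. Its groups did not overlap, and the difference of 0.35 (SE 0.19) had a limma adjusted p of 0.794. Htra2, an intermembrane space protease gene, differed by -0.38 (SE 0.25).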

How the data were processed

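The deposited table holds log2 values that the authors made with GCRMA. The submitters' processing notes name its version 2.20.0 and R 2.11.1, and no settings. That method corrects for background binding predicted from probe sequence and can compress differences at low signal. The log2 scale was read from the values (0.841 to 13.969, array medians 5.69 to 5.77). Of 22626 probe sets, 20380 had 1 symbol, 691 several and 1555 none; only the first were used, the brightest per gene, with a mean of at least 4.

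The genotypes were compared by limma 3.58.1 (R 4.3.3; lmFit, eBayes, 2-sided, Benjamini-Hochberg over 8343 genes), which was first tested on simulated data. Subunit medians have no test. Apart from the median signals of whole sets, signals of different probe sets were not compared as levels. Nothing in the labels ties each array to its own animal; the p-values then reflect only the spread among these arrays, part of which may be technical. The number of arrays limits the precision.

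Named genes were Sirt7 and, per subunit, the 6 genes with the smallest p, the 2 with the highest and 2 with the lowest mean. Genes whose probe sets differ in sign, Mrpl12, Mrpl16, Mrpl24 and the Mrps18 paralogs were also named. So were the 2 genes with the smallest p in each pathway list, plus Nrf1, Gabpa, Gabpb1 and Gfm2. In the cell cycle list these 2 were Rrm2 and Mcm6, which differed by 0.93 and 1.65 (limma adjusted p = 0.544 and 0.652). Mrpl46, Mrpl9, Mrpl32 and other genes outside this rule were picked with their values in view. The genes and lists were chosen with earlier results of these data known. The proteins with bacterial counterparts were assigned from general knowledge of the systematic nomenclature. Alternatives were other filters, normalizations, probe set rules and spread models, array weights, a replicate block and leaving out each array.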

Additional observations from a re-analysis of the deposited data

How the results depend on the processing

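Limma called 0 of 74 genes in every alternative other than array weights, which called 11 at a weight of 6.12 on knockout liver 2. The number at an unadjusted p under 0.05 was 2 in the fit reported, 23 with array weights, 4 with each probe set on its own (118 probe sets), 0 with the mean of the probe sets of a gene, 1 with the replicate block, and 0 to 8 without 1 array (8 without knockout liver 3). Of all features tested in those fits, 6.46% as reported, 39.2% with array weights, 5.996% with single probe sets, 6.25% with the mean and 4.72% with the block had such a p. The median difference of the small subunit was -0.232 with array weights, and lay between -0.11 and 0.11 without 1 array; that of the large subunit lay between -0.062 and 0.12. In 366 of 392 values of named genes under an alternative the direction was kept. The 26 others came from 12 genes. Other filters and spread models, the replicate block and single probe sets do not change the difference on the probe set used. The directions under those alternatives were therefore kept by design and do not measure stability. With array weights Mrpl12, Mrpl3, Mrpl39, Mrpl52, Mrps11 and Mrps18a were among those called. With the mean of probe sets the direction turned for Mrpl1 (0.11), Mrpl11 (-0.0439), Mrpl19 (-0.0122), Mrpl34 (0.16), Mrpl51 (0.0546), Mrpl57 (-0.0115), Mrps23 (0.43) and Mrps25 (-0.24). It also turned for Mrpl45 under quantile normalization (-5.6e-05) and for Mrps5 with array weights (-0.0260). Without 1 array it turned for Mrpl1 (-0.0855 to 0.069), Mrpl16 (-0.19 to 0.0288), Mrpl19 (-0.0265 to 0.10), Mrpl24 (-0.30 to 0.15), Mrpl34 (-0.34 to 0.12), Mrpl45 (-0.12 to 0.19), Mrpl51 (-0.32 to 0.0117) and Mrps23 (-0.11 to 0.10). With Mrps18a and Mrps30 counted in the large subunit and Mrps36 left out, a choice made after seeing the data, the medians were 0.035 and 0.019. Deviations of same-numbered knockout and wild-type livers from their group means correlated at -0.19 to -0.09. With 3 arrays per group, these correlations cannot decide whether the replicate numbers pair the samples. The causes of these shifts were not tested.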

Other observations

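The array holds 3 further probe sets that the annotation assigns to a mitochondrial ribosomal protein gene together with another gene, so their signal cannot be given to either. The probe set shared by Mrpl30 and Gm6238 read 11.70, 11.68 and 12.07 in knockout livers, against 11.76, 12.17 and 11.89 in wild-type livers. The one shared by Mrpl53 and Ccdc142 read 9.54, 9.05 and 9.28 in knockout livers, against 8.90, 9.14 and 9.34 in wild-type livers. The one shared by Mrps34 and Nme3 read 7.87, 7.46 and 7.51 in knockout livers, against 6.62, 6.81 and 7.74 in wild-type livers. In that last probe set wild-type livers 1 and 2 were below every knockout liver and wild-type liver 3 was among them. The probe set of Mrps34 alone read 8.52, 7.99 and 8.02 in knockout livers, against 7.34, 7.80 and 8.54 in wild-type livers, with wild-type livers 1 and 2 again lowest and wild-type liver 3 highest of all 6.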
